A study of Saccharomyces cerevisiae with 46 samples.

Results

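The genes described here are 39 antioxidant and redox defence genes of budding yeast (*Saccharomyces cerevisiae*), named one by one by their systematic identifiers. They are the catalases, superoxide dismutases, peroxiredoxins, thioredoxins, glutaredoxins, glutathione enzymes, methionine sulfoxide reductases and old yellow enzymes, with the regulators *YAP1* and *SKN7*. They are 39 of the 5574 genes listed in at least 1 RNA-seq table of a study of Spt4 and Spt5, the subunits of a factor that travels with RNA polymerase II during elongation. All 39 are listed for *spt4Δ* and WT cells, and 32 are listed for the anchor-away cells. The other members, *CTT1*, *TSA2*, *GRX3*, *GTT2*, *GTO3*, *OYE3* and *SKN7*, were not analysed here in the anchor-away cells.

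All strains derive from BY4741 and carry *RPB3-3xFLAG*. The *spt4Δ* and WT cells (2 libraries each) were untreated and differ in the deletion of *SPT4*. In the anchor-away strains Spt5 or Spt4 is fused to FRB-eGFP, and rapamycin ties the FRB part to Rpl13 fused to FKBP12 (*RPL13-2xFKBP12*), which carries the protein out of the nucleus. These strains also have *tor1-1* and *fpr1Δ*, in the treated and the control cultures alike. Spt5-AA cells (2 libraries, *SPT5-FRB-eGFP*) were harvested 180 min after rapamycin, and Spt4-AA cells (2 libraries, *SPT4-FRB-eGFP*) 140 min after it, at 1 mg/ml as the labels state it. DMSO cells were harvested 120 min after DMSO, with 1 library of each strain, and both anchor-away comparisons use these same DMSO libraries. Depletion, rapamycin and time of treatment therefore cannot be told apart, and each DMSO pair mixes strains. The labels only number the replicates, so p-values measure the spread between these libraries.

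Yeast removes superoxide with superoxide dismutases and hydrogen peroxide with catalases, peroxiredoxins and glutathione peroxidases. The oxidised thiols this leaves are reduced through the thioredoxin and the glutathione systems, both of which draw their electrons from NADPH. Many of the genes are targets of the peroxide-sensing activator Yap1, often together with Skn7, and several are also induced by the general stress activators Msn2 and Msn4.

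The promoter elements are shown first, since members that changed in opposite directions are set against them below. The window from 250 bases before to 50 bases after each start codon was searched on both strands for AGGGG, the stress response element (STRE) bound by Msn2 and Msn4, and for TTACTAA, a Yap1 response element (YRE). These motifs do not overlap each other. An STRE was found in 17 of 39 members (43.6%), against 1297 of 6001 protein-coding genes (21.6%), and a YRE in 11 of 39 members (28.2%), against 447 of 6001 (7.45%). The windows of *SRX1*, *GSH1*, *GSH2*, *GRX4*, *TRX1* and *TRR1*, among others, held neither of these motifs. Other forms of a Yap1 site were not searched for, so these windows may hold them. The lines below give, 5′ to 3′ on the strand of the gene, 30 bases around elements of 7 members that rose in Spt5-AA cells, from RefSeq's R64 assembly. The number is the distance from the first base of the element to the start codon, and the capitals mark the element in either orientation. Not shown are elements of other members, such as *SOD1* and *GRX2*, which also rose. *GPX2* and *CCS1*, which fell there, and *GLR1*, *ECM4*, *TRX3* and *CCP1*, which were not called, held elements too. A match is a description of the sequence and not a bound site.
TRX2, YRE at 217 (chrVII:913427-913456, minus strand): ttgtttatactcTTAGTAAaggatgctccc
TRX2, YRE at 181 (chrVII:913391-913420, minus strand): gtggctcttttcTTACTAAgcgcgttcagt
GTT1, STRE at 241 (chrIX:424734-424763, minus strand): tagcaacagAGGGGgtgcctcgcaatagcc
GTT1, STRE at 211 (chrIX:424707-424736, minus strand): gccaaggataagCCCCTccttgttactatg
GTT1, YRE at 165 (chrIX:424661-424690, minus strand): tgctacggccatTTACTAAtgattttcacc
GTT1, STRE at 114 (chrIX:424610-424639, minus strand): tggtgaaaatttAGGGGaagtggataacgt
PRX1, STRE at 116 (chrII:101255-101284, minus strand): cgtaaagaaacaAGGGGccggatgttgctg
SOD2, STRE at 141 (chrVIII:123714-123743, minus strand): ccgtagcagacaCCCCTgatgaagaagcta
TSA1, STRE at 53 (chrXIII:220073-220102, plus strand): tcaacgggccttCCCCTcgttcaattgctc
TRR2, STRE at 64 (chrVIII:325522-325551, plus strand): atgaaaacttttAGGGGatcgtccaacatt
AHP1, STRE at 215 (chrXII:368554-368583, plus strand): tctttttccacaCCCCTtccggacggtatt
AHP1, STRE at 165 (chrXII:368604-368633, plus strand): aatgaaaaataaAGGGGtggaaaattaagg

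The 10 libraries held 798455 to 6814227 reads, with a median of 55 to 378 reads per gene, the lowest in Spt5-AA replicate 1. The deletion was visible in the reads: *SPT4* had 0 and 4 reads in *spt4Δ* cells, against 531 and 250 in WT cells. The deposited values differed in level between libraries. The paper normalized its NET-seq libraries to reads of *S. pombe* cells mixed into each sample. Whether the RNA-seq factors have that source is not given in the sources used here. Whether the differences in level are of scale or of RNA amount was not tested. The median gene changed by 0.83 (log2) in *spt4Δ* cells, by −0.28 in Spt4-AA cells and by −1.84 in Spt5-AA cells as deposited. In *spt4Δ* cells the shift came mainly from replicate 1. Its median ratio to the mean library of its table was 2.16, against 0.835 in replicate 2 and 0.750 in both WT libraries. Every library was brought to the same median gene within its table, which removes any such shift. The resulting values are called scaled counts, and a scaled count that rose or fell did so relative to the median gene. A member that rose may thus be lower as deposited. Scaled counts of DMSO cells differ between the Spt4-AA and Spt5-AA tables because each table was scaled alone. Bulk RNA cannot tell a change in RNA per cell from a change in the share of cells that express a gene.

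The share of all reads that fell on the 32 members listed in every table needs no scaling between libraries, and was higher in Spt5-AA, Spt4-AA and *spt4Δ* cells than in their controls. It was 1.74 and 1.97% in Spt5-AA cells and 0.951 and 1.02% in Spt4-AA cells, against 0.689 and 0.709% in DMSO cells. In *spt4Δ* cells it was 0.842 and 0.903%, against 0.745 and 0.757% in WT cells. None of these pairs overlapped. The peroxiredoxins made up most of the difference. They held 0.748 and 0.874% of reads in Spt5-AA cells, against 0.136 and 0.140% in DMSO cells, which is 5.88-fold between the means. In Spt4-AA cells their share was 2.35-fold that in DMSO cells, and in *spt4Δ* cells 1.59-fold that in WT cells. The glutathione enzymes kept close to their share, at 1.04-fold, 0.973-fold and 1.00-fold in Spt5-AA, Spt4-AA and *spt4Δ* cells. With 2 libraries against 2, an exact permutation test cannot give a two-sided p below 0.333, and the shares are given as a description.

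**Figure D1:**
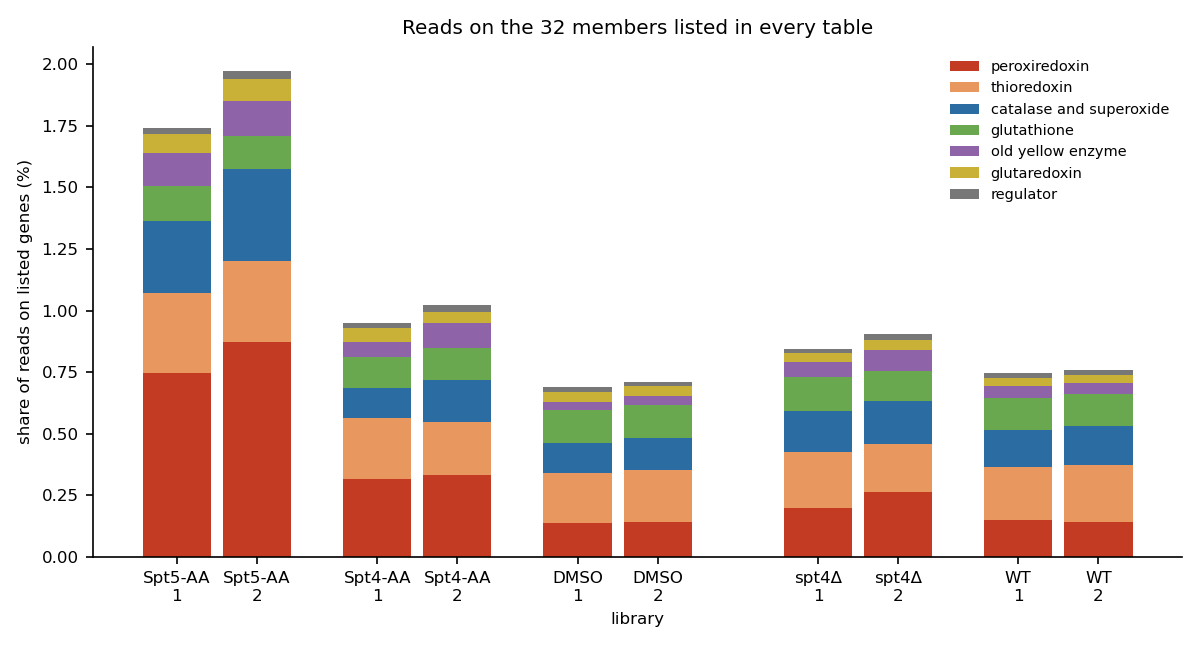
Stacked bars give the share (%) of all reads on listed genes that fell on the 32 members listed in every table, for each library (x axis, group and replicate), with colours for the roles. The Spt5-AA bars reach 1.74 and 1.97%, the Spt4-AA bars 0.951 and 1.02%, and the DMSO bars 0.689 and 0.709%, and the peroxiredoxin part differs most.

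Each gene was then tested with limma on log2(scaled count + 1) over all genes with a mean of at least 10 scaled counts, and called at a Benjamini-Hochberg adjusted p under 0.05. In Spt5-AA cells 21 of the 32 members rose, while 26.2% of all 4665 genes tested rose. Another 7 fell, beside 28.2% of all genes, and *CCP1*, *TRX3*, *GLR1* and *ECM4* were not called. *SRX1* and *GPX1*, both among the 21, passed the filter only through their level in Spt5-AA cells, so they could hardly have failed to differ. The median change of the members was 1.13 (log2), against 0.00 for all genes. In Spt4-AA cells 7 of the 30 members tested rose, beside 4.72% of all 4684 genes, and 1 fell, beside 4.23%. Their median change was 0.27, against 0.01 for all genes. In *spt4Δ* cells 0 of 38 members were called, beside 1.04% of all 5278 genes, and the median change was 0.14, against −0.01 for all genes. The groups did not overlap in 30 of 32 members for Spt5-AA (77% of all genes), in 25 of 30 for Spt4-AA (56.3%) and in 19 of 38 for *spt4Δ* (40.5%).

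The scale decided many directions in Spt5-AA cells. Without rescaling, 90.7% of all genes were called lower and 2.38% higher. All 7 that fell were called lower on both scales. With the median gene at −1.84 as deposited, they could hardly have failed to be lower there. The members called higher without rescaling were *PRX1*, *SRX1*, *SOD2*, *TSA1*, *GTT1*, *TRR2*, *GRX2* and *GRX1*, 8 of the 21 that rose. Of the other 13 that rose, *CTA1*, *DOT5*, *MXR1*, *MXR2*, *GRX5*, *HYR1*, *GTO1* and *YAP1* were called lower as deposited. *SOD1*, *AHP1*, *TRX2* and *OYE2* were not called on that scale. *GPX1* averaged under 10 as deposited and was not tested on that scale, where its values were 13.6 and 7.96 in Spt5-AA cells, against 6.92 and 6.78 in DMSO cells. In Spt4-AA cells *TSA1*, *AHP1*, *PRX1* and *TRR2* were called higher on both scales (3.03% of all genes were called higher as deposited), and *GPX2* lower on both (18.8% of all genes were called lower as deposited).

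**Figure D2:**
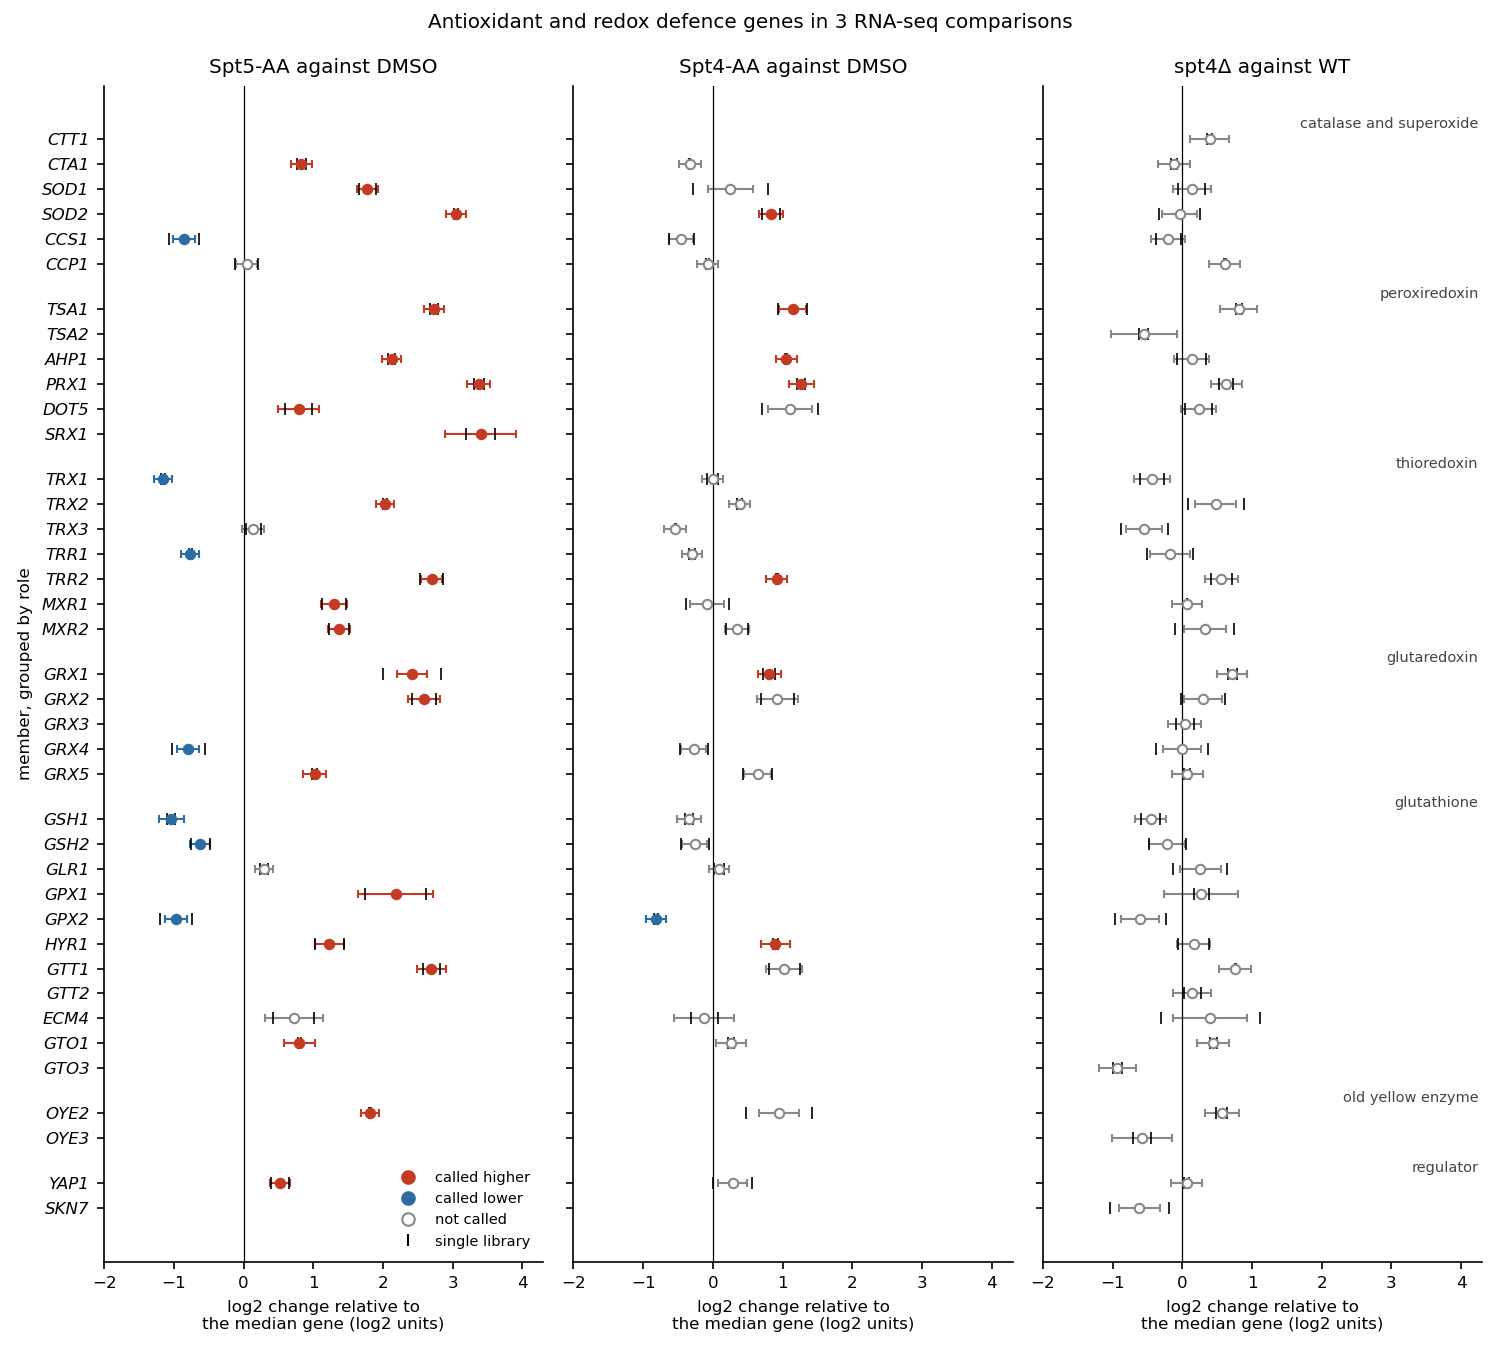
Points give the log2 change of each member relative to the median gene (x axis, log2 units) with the standard error from limma as bars, for Spt5-AA against DMSO, Spt4-AA against DMSO and *spt4Δ* against WT, and ticks give each treated or mutant library against the mean of its controls. Filled points were called, 21 higher and 7 lower in Spt5-AA cells, 7 and 1 in Spt4-AA cells and 0 in *spt4Δ* cells, and members without a point were not listed or did not pass the filter.

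The peroxiredoxins, which reduce peroxides through a reactive cysteine, had the highest median change of the roles with several members in Spt5-AA cells, at 2.73 (log2). Relative to the median gene all 5 members of the group listed for Spt5-AA cells rose. Of these, *DOT5* (YIL010W) was lower as deposited, and *AHP1* was at 0.27 and not called on that scale. The 5 and their median include *SRX1*, which passed the filter only through its level in Spt5-AA cells. *TSA1* (YML028W), the main cytosolic enzyme, had 5083 and 5517 scaled counts in Spt5-AA cells, against 747 and 846 in DMSO cells (log2 fold change 2.73, SE 0.14, limma adjusted p = 5.21e-10). *PRX1* (YBL064C), the mitochondrial enzyme, had 381 and 423 scaled counts in Spt5-AA cells, against 35.7 and 40.0 in DMSO cells (log2 fold change 3.38, SE 0.16). *AHP1* (YLR109W), which prefers organic peroxides, had 4617 and 4947 scaled counts in Spt5-AA cells, against 1082 and 1099.9 in DMSO cells (log2 fold change 2.13, SE 0.14). In each of these genes the lowest Spt5-AA library was several fold above the highest DMSO library. *SRX1* (YKL086W), sulfiredoxin, which restores overoxidised peroxiredoxins, had 45.9 and 34.1 scaled counts in Spt5-AA cells, against 5.2 and 1.38 in DMSO cells (log2 fold change 3.40, SE 0.51). Its DMSO values lay below the filter of 10. The nuclear enzyme *DOT5* had 39.1 and 29.7 scaled counts in Spt5-AA cells, against 20.1 and 18.6 in DMSO cells (log2 fold change 0.79, SE 0.30, adjusted p = 0.0359). This call was lost without Spt5-AA replicate 1 (log2 0.60), DMSO replicate 1 (0.84) or DMSO replicate 2 (0.74), and with DESeq2 (0.83, adjusted p = 0.163).

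In Spt4-AA cells 3 of the 4 peroxiredoxin genes tested rose. *TSA1* had 2377 and 3192 scaled counts in Spt4-AA cells, against 1176 and 1324 in DMSO cells (log2 fold change 1.14, SE 0.19, limma adjusted p = 0.0169). *AHP1* had 3512 and 3588 scaled counts in Spt4-AA cells, against 1704 and 1722 in DMSO cells (log2 fold change 1.05, SE 0.15, adjusted p = 0.0108). *PRX1* had 138 and 150.2 scaled counts in Spt4-AA cells, against 56.1 and 62.6 in DMSO cells (log2 fold change 1.27, SE 0.18, adjusted p = 0.0108). The groups lay apart for all of these genes, and also for *DOT5*, which was not called at 50.0 and 88.0 scaled counts in Spt4-AA cells, against 31.6 and 29.1 in DMSO cells (adjusted p = 0.0704). *SRX1* did not pass the filter in Spt4-AA cells, with 11.8 and 4.67 scaled counts in Spt4-AA cells, against 8.19 and 2.16 in DMSO cells. The number of members called in Spt4-AA cells, over all roles, depended on single libraries. Of 30 members it was 17 without Spt4-AA replicate 1, beside 35.2% of all genes in that fit, and 19 without Spt4-AA replicate 2, beside 31% of all genes. It was 0 without DMSO replicate 1 and 2 without DMSO replicate 2, beside 1.99% and 1.9% of all genes. The lone library of a group was then assumed to vary like the others. Each of the 8 calls, *GPX2* (YBR244W) included, was lost without at least 1 of the DMSO libraries.

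In *spt4Δ* cells *TSA1* had 8938 and 8399 scaled counts, against 5078 and 4809.8 in WT cells (log2 fold change 0.81, SE 0.26) and was not called by limma (adjusted p = 0.253). The groups did not overlap, and DESeq2 on the recovered reads gave an adjusted p of 0.0427. *PRX1* had 288 and 331 scaled counts in *spt4Δ* cells, against 181 and 219 in WT cells (log2 fold change 0.63, SE 0.22, adjusted p = 0.306). *AHP1* overlapped, with 2153 and 2880.3 scaled counts in *spt4Δ* cells, against 2364 and 2175 in WT cells. *DOT5* lay above WT in both libraries without a call, with 109 and 143 scaled counts in *spt4Δ* cells, against 109 and 104 in WT cells. *TSA2* (YDR453C), the scarce cytosolic copy of *TSA1*, had 12.8 and 14.1 scaled counts in *spt4Δ* cells, against 21.2 and 19.2 in WT cells. The coding sequences of *TSA1* and *TSA2* are 78.5% identical, but no run of 30 bases in any member is shared with another gene.

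**Figure D3:**
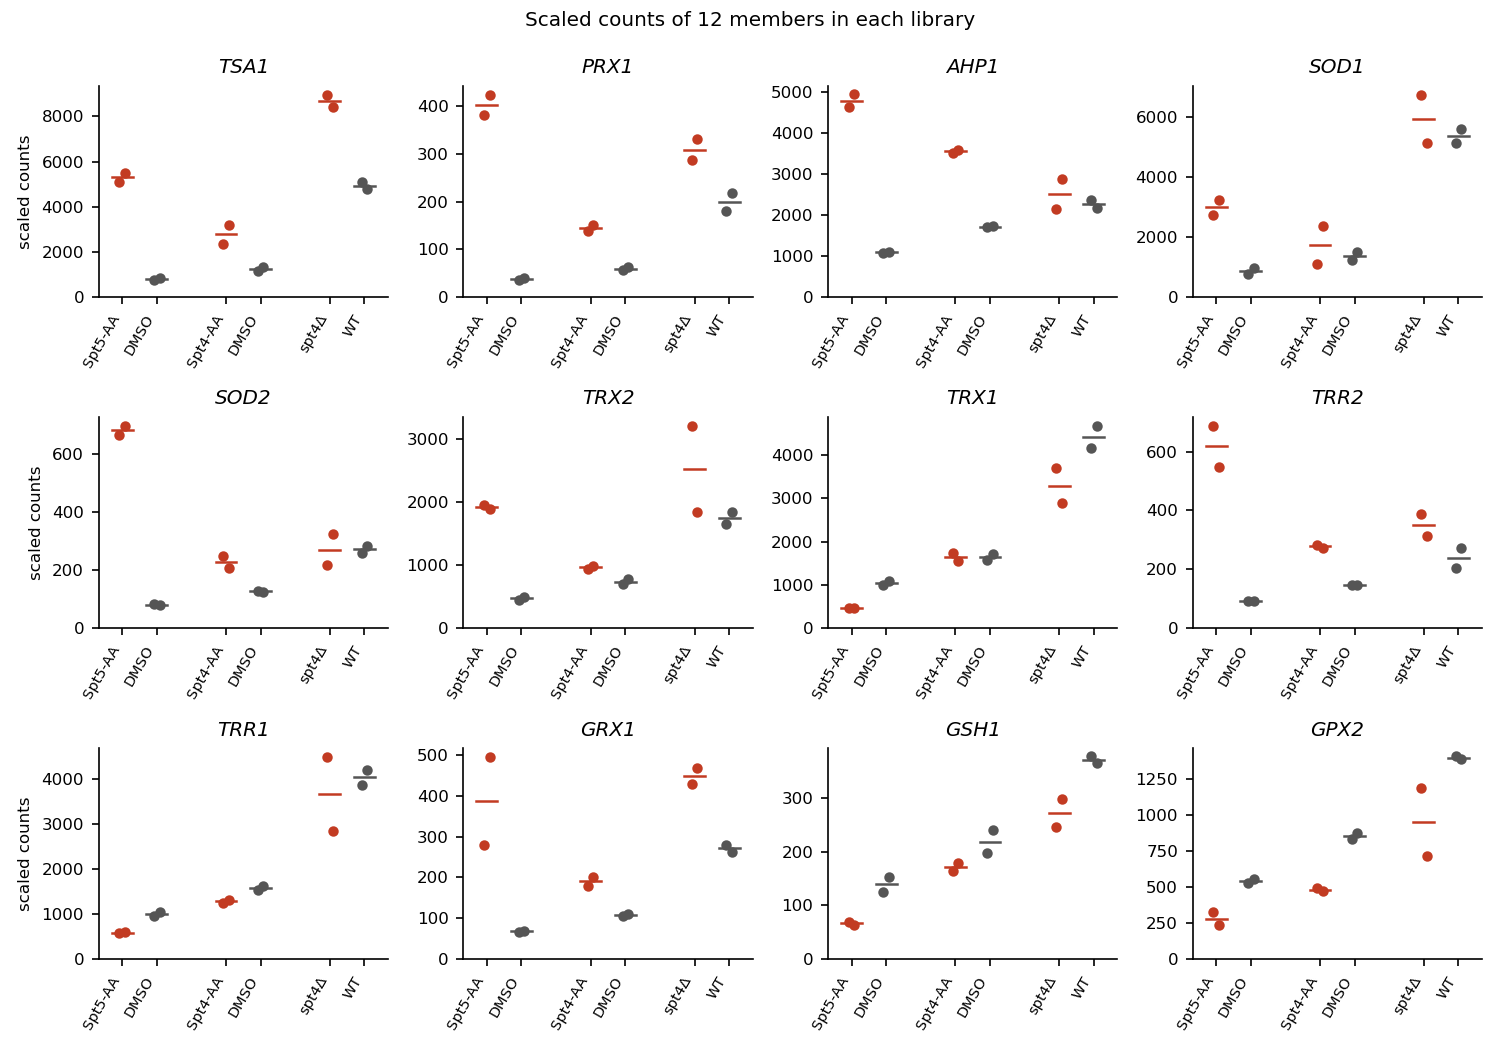
Points give the scaled counts (y axis, from 0) of 12 members in each of 2 libraries per group, with lines at the means, for Spt5-AA and its DMSO cells, Spt4-AA and its DMSO cells, and *spt4Δ* and WT cells. *TSA1*, *PRX1*, *AHP1*, *SOD1*, *SOD2*, *TRX2*, *TRR2* and *GRX1* lie above DMSO in both Spt5-AA libraries, and *TRX1*, *TRR1*, *GSH1* and *GPX2* lie below it.

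Superoxide dismutases turn superoxide into hydrogen peroxide, and both rose in Spt5-AA cells relative to the median gene, while as deposited *SOD1* (YJR104C) was at −0.08 and not called. *SOD2* (YHR008C), the manganese enzyme of the mitochondrial matrix, had 665 and 696 scaled counts in Spt5-AA cells, against 81.7 and 80.6 in DMSO cells (log2 fold change 3.05, SE 0.14, limma adjusted p = 1.72e-10). *SOD1*, the copper and zinc enzyme, had 2733 and 3248 scaled counts in Spt5-AA cells, against 786 and 959 in DMSO cells (log2 fold change 1.78, SE 0.15). *CCS1* (YMR038C), the chaperone that loads copper into Sod1, went the other way, at 243 and 328 scaled counts in Spt5-AA cells, against 527 and 495 in DMSO cells (log2 fold change −0.85, SE 0.15). The enzyme and its chaperone thus parted. Per base of coding sequence, *SOD1* had 18.1 and 16.0 times the reads of *CCS1* in Spt5-AA cells, against 2.41 and 3.13 times in DMSO cells. In Spt4-AA cells *SOD2* rose, with 249 and 209 scaled counts, against 129 and 126 in DMSO cells (log2 fold change 0.83, SE 0.17, adjusted p = 0.0292). *SOD1* did not separate there, with 1113 and 2367 scaled counts in Spt4-AA cells, against 1238 and 1502 in DMSO cells. Its Spt4-AA libraries lay on either side of the DMSO libraries. *CCS1* had 515 and 663 scaled counts in Spt4-AA cells, against 829 and 775 in DMSO cells (log2 fold change −0.45, SE 0.17, adjusted p = 0.144) and was not called. In *spt4Δ* cells all 3 genes overlapped WT. *SOD1* had 6737 and 5152 scaled counts in *spt4Δ* cells, against 5139 and 5587 in WT cells (log2 fold change 0.14, SE 0.27). *SOD2* had 216 and 323 scaled counts in *spt4Δ* cells, against 259 and 284 in WT cells (log2 fold change −0.04, SE 0.25). *CCS1* had 1517 and 1183 scaled counts in *spt4Δ* cells, against 1471 and 1621 in WT cells (log2 fold change −0.20, SE 0.24).

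Of the catalases, *CTA1* (YDR256C), the peroxisomal enzyme, had 192 and 175 scaled counts in Spt5-AA cells, against 103 and 102 in DMSO cells (log2 fold change 0.83, SE 0.16, limma adjusted p = 0.000366), and as deposited it was lower. In Spt4-AA cells it had 128 and 127 scaled counts, against 163 and 159.7 in DMSO cells (log2 fold change −0.33, SE 0.16, adjusted p = 0.226), a difference in the other direction that was not called. *CTT1* (YGR088W), the cytosolic catalase, had 71.5 and 74.7 scaled counts in *spt4Δ* cells, against 53.4 and 57.5 in WT cells (log2 fold change 0.39, SE 0.27, adjusted p = 0.704). *CTA1* overlapped between the same cells, with 236 and 252 scaled counts in *spt4Δ* cells, against 301 and 232 in WT cells. *CCP1* (YKR066C), a mitochondrial cytochrome c peroxidase, was not called anywhere. It had 179 and 223 scaled counts in Spt5-AA cells, against 196 and 192 in DMSO cells. In *spt4Δ* cells it lay above WT in both libraries, with 913 and 933 scaled counts, against 615 and 596 in WT cells (log2 fold change 0.61, SE 0.22, adjusted p = 0.312).

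The thioredoxin system parted between closely related genes. Thioredoxins reduce disulfides, and *TRX1* (YLR043C) and *TRX2* (YGR209C) encode closely related cytosolic forms whose coding sequences are 73% identical. *TRX2*, whose promoter held a pair of YREs, had 1959 and 1889 scaled counts in Spt5-AA cells, against 444 and 500.3 in DMSO cells (log2 fold change 2.03, SE 0.13, limma adjusted p = 8.35e-09). *TRX1*, whose promoter held none, had 477 and 462 scaled counts in Spt5-AA cells, against 1001 and 1094 in DMSO cells (log2 fold change −1.16, SE 0.13, adjusted p = 2.71e-06). Within each library, the ratio of *TRX2* to *TRX1* reads per base was 4.07 and 4.05 in Spt5-AA cells, against 0.439 and 0.453 in DMSO cells, so the more abundant thioredoxin of DMSO cells was the less abundant in Spt5-AA cells. As deposited *TRX2* was at 0.17 and not called, and *TRX1* at −3.01. The ratio was 0.541 and 0.634 in Spt4-AA cells against the same DMSO values, and 0.862 and 0.630 in *spt4Δ* cells, against 0.394 and 0.391 in WT cells. It was higher than in the controls in all 3 comparisons, without overlap, although neither gene was called in Spt4-AA or *spt4Δ* cells. The levels behind it were 944 and 992 scaled counts in Spt4-AA cells, against 698 and 783 in DMSO cells for *TRX2*. *TRX1* had 1730.2 and 1551 scaled counts in Spt4-AA cells, against 1576 and 1713 in DMSO cells. In *spt4Δ* cells the WT levels of *TRX2* overlapped, with 3209 and 1838 scaled counts, against 1654 and 1839 in WT cells. *TRX1* had 3687 and 2892 scaled counts in *spt4Δ* cells, against 4163 and 4664 in WT cells.

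The thioredoxin reductases parted in the same manner. *TRR2* (YHR106W), the mitochondrial form, had 688 and 547 scaled counts in Spt5-AA cells, against 93.6 and 93.0 in DMSO cells (log2 fold change 2.70, SE 0.15, limma adjusted p = 1.62e-09). *TRR1* (YDR353W), the cytosolic form, had 582 and 599.9 scaled counts in Spt5-AA cells, against 970.3 and 1042 in DMSO cells (log2 fold change −0.77, SE 0.13, adjusted p = 0.000143). Their ratio per base was 1.10 and 0.851 in Spt5-AA cells, against 0.0900 and 0.0833 in DMSO cells, an 11.2-fold difference between geometric means. In Spt4-AA cells *TRR2* rose, with 281 and 274 scaled counts, against 147 and 146 in DMSO cells (log2 fold change 0.92, SE 0.15, adjusted p = 0.0169). *TRR1* was not called, with 1250.2 and 1316 scaled counts in Spt4-AA cells, against 1528 and 1631 in DMSO cells (adjusted p = 0.247). In *spt4Δ* cells *TRR2* had 386 and 314 scaled counts, against 204 and 272 in WT cells (log2 fold change 0.56, SE 0.24, adjusted p = 0.419). *TRR1* overlapped, with 4497 and 2845 scaled counts in *spt4Δ* cells, against 3876 and 4200.0 in WT cells. The mitochondrial thioredoxin *TRX3* (YCR083W) was not called in any comparison and had 153 and 132 scaled counts in Spt5-AA cells, against 124 and 134 in DMSO cells. In Spt4-AA cells it lay below DMSO in both libraries, with 140.1 and 139 scaled counts, against 195 and 210.4 in DMSO cells (log2 fold change −0.54, SE 0.16, adjusted p = 0.0778). In *spt4Δ* cells *TRX3* lay below WT in both libraries, with 398 and 249 scaled counts, against 428 and 497 in WT cells (log2 fold change −0.55, SE 0.26, adjusted p = 0.502).

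The methionine sulfoxide reductases, which repair oxidised methionine with electrons from thioredoxin, rose together in Spt5-AA cells relative to the median gene and were lower as deposited. *MXR1* (YER042W) had 123 and 156 scaled counts in Spt5-AA cells, against 58.7 and 53.1 in DMSO cells (log2 fold change 1.30, SE 0.19). *MXR2* (YCL033C), the mitochondrial form, had 398 and 326 scaled counts in Spt5-AA cells, against 129 and 148 in DMSO cells (log2 fold change 1.37, SE 0.15, limma adjusted p = 2.6e-06). Both groups were apart in each gene, and the ratio of *MXR2* to *MXR1* overlapped between Spt5-AA and DMSO cells. Neither was called in Spt4-AA or *spt4Δ* cells. In Spt4-AA cells *MXR1* overlapped DMSO, with 66.6 and 103 scaled counts, against 92.4 and 83.1 in DMSO cells (log2 fold change −0.08, SE 0.24). *MXR2* lay above DMSO in both libraries, with 309 and 248 scaled counts in Spt4-AA cells, against 204 and 232 in DMSO cells (log2 fold change 0.35, SE 0.18, adjusted p = 0.261). In *spt4Δ* cells *MXR1* lay just above WT, with 292 and 292 scaled counts, against 278 and 280.0 in WT cells (log2 fold change 0.07, SE 0.21). *MXR2* overlapped WT, with 716 and 397 scaled counts in *spt4Δ* cells, against 356 and 510.1 in WT cells (log2 fold change 0.32, SE 0.30).

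**Figure D4:**
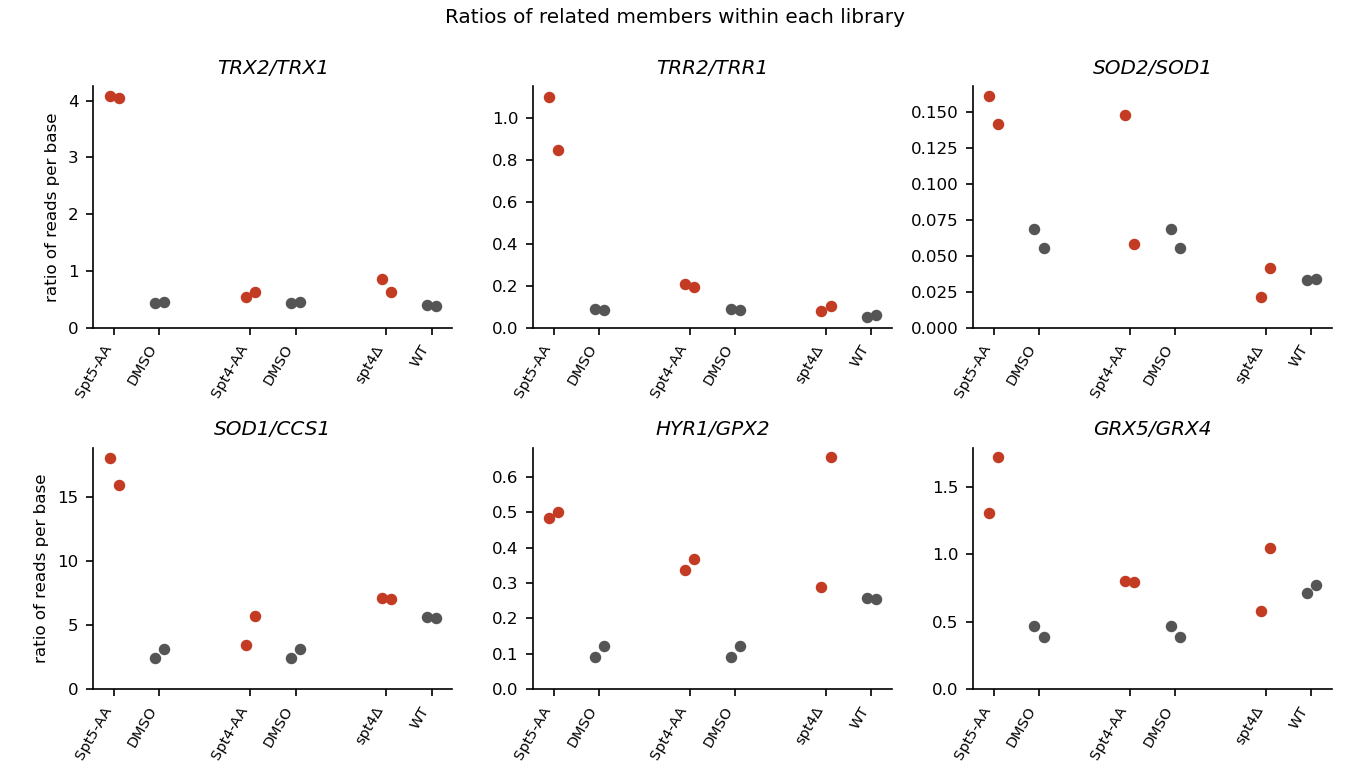
Points give the ratio of reads per base of coding sequence (y axis, from 0) between related members within each of 2 libraries per group, which needs no scaling between libraries, for Spt5-AA and DMSO, Spt4-AA and DMSO (the same DMSO libraries), and *spt4Δ* and WT cells. The *TRX2*/*TRX1* ratio is 4.07 and 4.05 in Spt5-AA cells against 0.439 and 0.453 in DMSO cells, and all 6 ratios lie above DMSO in both Spt5-AA libraries. The pairs were chosen with the values known. All but *SOD2*/*SOD1* set a member called higher in Spt5-AA cells over one called lower, so their direction follows from those calls. The *MXR2*/*MXR1* ratio, which overlapped, is not shown.

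The mitochondrial forms did not move as one. They were set against cytosolic ones within libraries, as pairs chosen with the values known. In Spt5-AA cells the ratio was above DMSO without overlap for *TRR2* to *TRR1*, for *SOD2* to *SOD1* (0.161 and 0.142 in Spt5-AA cells, against 0.0689 and 0.0557 in DMSO cells) and for *PRX1* to *TSA1* (0.0564 and 0.0576 in Spt5-AA cells, against 0.0359 and 0.0355 in DMSO cells). For *TRX3* to *TRX1* it was 0.261 and 0.232 in Spt5-AA cells, against 0.101 and 0.0998 in DMSO cells, where *TRX1* was called lower and *TRX3* was not called. For *MXR2* to *MXR1* it was 3.56 and 2.28 in Spt5-AA cells, against 2.41 and 3.06 in DMSO cells, which overlapped. In Spt4-AA cells only the first of these 5 ratios lay above DMSO in both libraries. The ratio of *GRX5* to the nuclear and cytosolic *GRX4* also lay above DMSO in both comparisons. It was 1.303 and 1.725 in Spt5-AA cells and 0.804 and 0.797 in Spt4-AA cells, against 0.467 and 0.384 in DMSO cells.

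Glutaredoxins reduce disulfides with glutathione, and of the 4 listed for Spt5-AA cells 3 rose relative to the median gene and 1 fell. The dithiol form *GRX1* (YCL035C) had 279 and 495 scaled counts in Spt5-AA cells, against 67.6 and 70.3 in DMSO cells (log2 fold change 2.41, SE 0.21, limma adjusted p = 2.15e-07), with the Spt5-AA libraries far from each other but both above DMSO. Its paralogue *GRX2* (YDR513W) had 306 and 240.0 scaled counts in Spt5-AA cells, against 33.4 and 58.6 in DMSO cells (log2 fold change 2.59, SE 0.23). *GRX2* overlaps the gene YDR512C, and whether the counting used strand is not given in the sources used here, so its values are uncertain. *GRX5* (YPL059W), the mitochondrial monothiol form that serves iron-sulfur cluster assembly, had 194 and 185 scaled counts in Spt5-AA cells, against 99.6 and 86.8 in DMSO cells (log2 fold change 1.02, SE 0.16), and was lower as deposited. *GRX4* (YER174C), a nuclear and cytosolic monothiol form that regulates iron-dependent transcription, fell, with 242 and 174 scaled counts in Spt5-AA cells, against 346 and 367 in DMSO cells (log2 fold change −0.79, SE 0.16, adjusted p = 0.000726). In Spt4-AA cells *GRX1* rose, with 179 and 202 scaled counts, against 106 and 110.0 in DMSO cells (log2 fold change 0.81, SE 0.17, adjusted p = 0.0303). *GRX2* had 157 and 113 scaled counts in Spt4-AA cells, against 52.6 and 91.7 in DMSO cells (adjusted p = 0.0948). *GRX5* had 264 and 198 scaled counts in Spt4-AA cells, against 157 and 136 in DMSO cells (adjusted p = 0.0852). Neither of these was called, although both lay above DMSO without overlap. *GRX4* had 532 and 402 scaled counts in Spt4-AA cells, against 545 and 574 in DMSO cells (log2 fold change −0.27, SE 0.18, adjusted p = 0.376). In *spt4Δ* cells *GRX1* was above WT in both libraries, with 428 and 469 scaled counts, against 281 and 263 in WT cells (log2 fold change 0.72, SE 0.21, adjusted p = 0.204). *GRX2* overlapped WT there, with 102 and 159 scaled counts in *spt4Δ* cells, against 109 and 97.8 in WT cells. The monothiol forms overlapped WT as well. *GRX5* had 419 and 445 scaled counts in *spt4Δ* cells, against 371 and 455 in WT cells. *GRX4* had 1164 and 691 scaled counts in *spt4Δ* cells, against 846 and 955 in WT cells. Its close relative *GRX3* (YDR098C) had 873 and 730.1 scaled counts in *spt4Δ* cells, against 707 and 859 in WT cells.

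The enzymes that make glutathione fell in Spt5-AA cells relative to the median gene. As deposited they were called lower too, as were 90.7% of all genes. *GSH1* (YJL101C), the gene of the first and rate-limiting step, had 69.8 and 63.8 scaled counts in Spt5-AA cells, against 125 and 153 in DMSO cells (log2 fold change −1.04, SE 0.18, limma adjusted p = 0.000174). *GSH2* (YOL049W), of the second step, had 337 and 278 scaled counts in Spt5-AA cells, against 459.9 and 485 in DMSO cells (log2 fold change −0.62, SE 0.14, adjusted p = 0.00164). All 4 Spt5-AA values lay below their DMSO values. *GLR1* (YPL091W), the reductase that recycles oxidised glutathione, was not called, with a change of 0.29 (adjusted p = 0.0688). In Spt4-AA cells *GSH1* had 165 and 178 scaled counts, against 197 and 239 in DMSO cells (log2 fold change −0.34, SE 0.17, adjusted p = 0.257). *GSH2* had 538 and 715 scaled counts in Spt4-AA cells, against 724 and 759 in DMSO cells (log2 fold change −0.26, SE 0.18, adjusted p = 0.403). In *spt4Δ* cells *GSH1* lay below WT in both libraries, with 246 and 297 scaled counts, against 376 and 364 in WT cells (log2 fold change −0.45, SE 0.22, adjusted p = 0.516). *GSH2* overlapped WT, with 2076 and 1434 scaled counts in *spt4Δ* cells, against 1947 and 2058 in WT cells. None of these was called.

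The glutathione peroxidase family, whose yeast members act largely with thioredoxin, split as well. *HYR1* (YIR037W), also called *GPX3*, encodes the peroxide sensor that activates Yap1 and had 158 and 119 scaled counts in Spt5-AA cells, against 49.0 and 68.2 in DMSO cells (log2 fold change 1.23, SE 0.21), and was lower as deposited. *GPX2* fell, with 325 and 236 scaled counts in Spt5-AA cells, against 527 and 556 in DMSO cells (log2 fold change −0.97, SE 0.16, limma adjusted p = 0.000101). As deposited it was called lower too, as were 90.7% of all genes. *GPX1* (YKL026C) had few reads, with 27.2 and 14.3 scaled counts in Spt5-AA cells, against 3.71 and 3.45 in DMSO cells (log2 fold change 2.18, SE 0.53). The split between *HYR1* and *GPX2* was also found in Spt4-AA cells, where *HYR1* rose, with 166 and 174 scaled counts in Spt4-AA cells, against 77.2 and 107 in DMSO cells (log2 fold change 0.90, SE 0.20, adjusted p = 0.0403). *GPX2* fell there, with 489.9 and 473 scaled counts in Spt4-AA cells, against 830.5 and 871 in DMSO cells (log2 fold change −0.82, SE 0.15, adjusted p = 0.0202). It was the only member called lower in Spt4-AA cells. The ratio of *HYR1* to *GPX2* per base was 0.484 and 0.502 in Spt5-AA cells and 0.336 and 0.367 in Spt4-AA cells, against 0.0924 and 0.122 in DMSO cells. In *spt4Δ* cells it was 0.288 and 0.655, against 0.257 and 0.254 in WT cells, without overlap but far apart between the mutant libraries. *GPX2* had 1182 and 713 scaled counts in *spt4Δ* cells, against 1403 and 1388 in WT cells (log2 fold change −0.60, SE 0.27, adjusted p = 0.463). *HYR1* overlapped WT, with 343 and 470.1 scaled counts in *spt4Δ* cells, against 363 and 355 in WT cells. *GPX1* stayed scarce in both of these comparisons. It had 15.7 and 8.56 scaled counts in Spt4-AA cells, against 5.85 and 5.39 in DMSO cells, and did not pass the filter there. It overlapped WT, with 14.5 and 16.9 scaled counts in *spt4Δ* cells, against 17.0 and 9.59 in WT cells.

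Glutathione transferases attach glutathione to other molecules. *GTT1* (YIR038C), whose promoter held 3 STREs and a YRE, had 179 and 211 scaled counts in Spt5-AA cells, against 34.2 and 24.8 in DMSO cells (log2 fold change 2.70, SE 0.21, limma adjusted p = 4.35e-08). In Spt4-AA cells it was just short of a call, with 80.3 and 109.8 scaled counts, against 53.8 and 38.8 in DMSO cells (log2 fold change 1.02, SE 0.26, adjusted p = 0.051), and it was called by edgeR. In *spt4Δ* cells it lay above WT in both libraries, with 304 and 299 scaled counts, against 154 and 203 in WT cells (log2 fold change 0.76, SE 0.23, adjusted p = 0.206). *GTT2* (YLL060C) overlapped WT, with 101 and 121 scaled counts in *spt4Δ* cells, against 81.4 and 123 in WT cells. Of the omega class, *GTO1* (YGR154C) had 64.7 and 67.1 scaled counts in Spt5-AA cells, against 32.7 and 42.7 in DMSO cells (log2 fold change 0.80, SE 0.23, adjusted p = 0.00727), a call lost without DMSO replicate 1 (log2 0.61) and with DESeq2, and lower as deposited. *ECM4* (YKR076W) was not called, with 23.8 and 15.4 scaled counts in Spt5-AA cells, against 14.1 and 8.96 in DMSO cells. *GTO1* lay above its controls in both other comparisons without a call. It had 72.5 and 68.5 scaled counts in Spt4-AA cells, against 51.5 and 66.9 in DMSO cells (log2 fold change 0.26, SE 0.22, adjusted p = 0.492). It had 152 and 164 scaled counts in *spt4Δ* cells, against 120.4 and 111 in WT cells (log2 fold change 0.44, SE 0.23, adjusted p = 0.556). *ECM4* overlapped its controls in both, with 18.6 and 14.0 scaled counts in Spt4-AA cells, against 22.2 and 14.0 in DMSO cells. *ECM4* had 13.6 and 38.1 scaled counts in *spt4Δ* cells, against 17.0 and 17.3 in WT cells. *GTO3* (YMR251W) had the largest negative change among members in *spt4Δ* cells, with 48.5 and 53.6 scaled counts in *spt4Δ* cells, against 98.4 and 97.8 in WT cells (log2 fold change −0.93, SE 0.27, adjusted p = 0.176).

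The old yellow enzymes are NADPH oxidoreductases. *OYE2* (YHR179W) had 1814 and 1778 scaled counts in Spt5-AA cells, against 495 and 522 in DMSO cells (log2 fold change 1.82, SE 0.13, limma adjusted p = 2.06e-08), and as deposited it was at −0.04 and not called. In Spt4-AA cells it had 1104 and 2135 scaled counts, against 779 and 818 in DMSO cells (log2 fold change 0.94, SE 0.29, adjusted p = 0.0857), was not called by limma and was called by DESeq2. Both Spt4-AA libraries lay above DMSO and far from each other. In *spt4Δ* cells *OYE2* had 3488 and 3899 scaled counts, against 2567 and 2413 in WT cells (log2 fold change 0.57, SE 0.25, adjusted p = 0.435). *OYE3* (YPL171C) was scarce, with 17.9 and 14.8 scaled counts in *spt4Δ* cells, against 24.6 and 24.9 in WT cells.

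Of the regulators, *YAP1* (YML007W) encodes the peroxide-responsive activator. *YAP1* had 345 and 412 scaled counts in Spt5-AA cells, against 272 and 252 in DMSO cells (log2 fold change 0.53, SE 0.14, limma adjusted p = 0.00589), a call lost without DMSO replicate 2 (log2 0.47), and it was lower as deposited. In Spt4-AA cells its groups overlapped, with 412 and 606 scaled counts, against 428 and 394 in DMSO cells. In *spt4Δ* cells *YAP1* overlapped WT as well, with 959.7 and 1009 scaled counts, against 968 and 911 in WT cells (log2 fold change 0.07, SE 0.22). *SKN7* (YHR206W), which encodes a response regulator that acts with Yap1, had 68.9 and 125 scaled counts in *spt4Δ* cells, against 138 and 148 in WT cells (log2 fold change −0.62, SE 0.30, adjusted p = 0.507).

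In *spt4Δ* cells no member was called by limma or by edgeR, and 1, *TSA1*, was called by DESeq2. An unadjusted p under 0.05 was reached by 9 of the 38 members tested, beside 10.7% of all genes. Leaving out *spt4Δ* replicate 1 gave 12 member calls, 6 higher and 6 lower, beside 9.3% of all genes. Leaving out *spt4Δ* replicate 2 gave 13 of 38, of which 10 were higher, beside 30% of all genes, which is near the members' share. The lone mutant library was then assumed to vary like the others. Leaving out WT replicate 1 or 2 gave 0 member calls, beside 0.303% and 0.512% of all genes. *SRX1* did not pass the filter in these cells, with 0.851 and 4.23 scaled counts in *spt4Δ* cells, against 1.7 and 1.92 in WT cells.

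The order of levels among the members, in scaled counts per kilobase of coding sequence, also differed between groups. In Spt5-AA cells it was led by *AHP1* at 9005 and *TSA1* at 8968, which overlapped between libraries, then by *SOD1* at 6432 and *TRX2* at 6107, which overlapped too. *TRX1* led in DMSO cells at 3358, before *AHP1* at 2055 and *SOD1* at 1877. In *spt4Δ* cells *TSA1* led at 14668, and in WT cells *TRX1* at 14145. The lowest were *ECM4* at 17.6 in Spt5-AA cells and *GPX1* at 7.10 in DMSO cells, and *SRX1* at 6.61 in *spt4Δ* cells and 4.71 in WT cells.

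Set against the promoters, 12 of the 21 members that rose in Spt5-AA cells held an STRE, while 28.7% of all genes that rose did. The 12 include *GPX1*, which passed the filter only through its level in Spt5-AA cells. Of the 7 members that fell only *GPX2* held an STRE and only *CCS1* a YRE, while 15.3% and 8.52% of all genes that fell did. A YRE was found in 5 of the 21, and in 6.82% of all genes that rose. The other members that rose, *CTA1*, *DOT5*, *SRX1*, *MXR1*, *MXR2*, *GRX5*, *HYR1* and *OYE2*, held neither element in the window. Of the 4 members not called, 3 held an STRE and 2 a YRE, beside 20.2% and 8.08% of all genes not called. Whether the elements go with the direction of change was not tested.

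Among the genes that supply NADPH or act beside the members, as among all genes, some rose and some fell in Spt5-AA cells. Of 12 genes tested that supply NADPH, 5 rose and 4 fell, beside 26.2% and 28.2% of all genes, with a median change of 0.17. *TKL2*, a transketolase, had 83.4 and 83.7 scaled counts in Spt5-AA cells, against 11.9 and 8.27 in DMSO cells (log2 fold change 2.95, SE 0.28). *IDP1*, mitochondrial isocitrate dehydrogenase, changed by 1.12 and by −0.73 as deposited. *RKI1*, of the pentose phosphate pathway, fell to 93.6 and 132 in Spt5-AA cells, against 490.3 and 441 in DMSO cells (log2 fold change −2.05, SE 0.17), and *TAL1*, transaldolase, changed by −1.50. In Spt4-AA cells *RKI1* was the only gene of the list called (−0.82), and that call was lost without DMSO replicate 1 (−0.74) and without DMSO replicate 2 (−0.90), with a pseudocount of 0.1 and with a mean of at least 100. In *spt4Δ* cells *NQM1*, the other transaldolase, was the only one of 17, with 209 and 175 scaled counts, against 50.03 and 38.4 in WT cells (log2 fold change 2.10, SE 0.26, limma adjusted p = 0.00592). That call was lost when libraries were brought to the same total (2.13, adjusted p = 0.0668).

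Of 12 genes tested for Yap1 and Skn7 signalling or transport, 3 rose and 3 fell in Spt5-AA cells, near the 26.2% and 28.2% of all genes. The largest changes were those of *HBN1* (2.72) and of *YHB1* (−1.26), the flavohaemoglobin that removes nitric oxide. *HBN1* passed the filter only through its level in Spt5-AA cells, with 34.0 and 42.9 scaled counts, against 5.94 and 4.13 in DMSO cells. *YHB1* also fell in Spt4-AA cells, where it had 414 and 844 scaled counts, against 1635 and 1694 in DMSO cells (log2 fold change −1.49, SE 0.30, limma adjusted p = 0.0299). *ATR1*, a drug transporter, fell in Spt4-AA cells (−1.55) and in *spt4Δ* cells, where it had 75.7 and 86.0 scaled counts, against 183 and 226 in WT cells (log2 fold change −1.32, SE 0.24, adjusted p = 0.0257). Its call in *spt4Δ* cells was lost without WT replicate 1 (−1.48), without WT replicate 2 (−1.17), as deposited (−0.49) and at the same total (−1.30). In Spt4-AA cells the calls of *ATR1* (−1.45 and −1.65) and *YHB1* (−1.52 and −1.47) were lost without DMSO replicate 1 or 2. Of 15 genes tested for copper, manganese and iron-sulfur handling, 2 rose and 5 fell in Spt5-AA cells, beside 26.2% and 28.2% of all genes. *ISU1*, a scaffold for iron-sulfur clusters, changed by 1.06 and by −0.78 as deposited, and *ATX1*, a copper chaperone, by −0.87. None of this last list was called by limma, edgeR or DESeq2 in Spt4-AA or *spt4Δ* cells, where 1 of 16 and 0 of 17 had an unadjusted p under 0.05. Over all genes tested by limma, 4.72% rose and 4.23% fell in Spt4-AA cells, and 1.04% were called in *spt4Δ* cells.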

How the data were processed

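RNA-seq of total RNA was analysed for 10 libraries of the 46 samples of the series. The samples of the other assays (MNase-seq, ChIP-seq, NET-seq and TEF-seq) were not used. The authors deposited 3 tables of normalized counts, 1 per comparison, as a signal that equals read counts per gene divided by 1 factor per library. The source of these factors is not given in the sources used here. The submitters' processing notes name Trim Galore, TopHat, DESeq2, sacCer3, R64 and ASM294v2, without versions. Another 3 deposited tables hold the authors' own fold changes and p-values and were not used. All per-library columns were used, and 100% of values were whole reads within 0.001 of a read.

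Each library was divided by its median ratio to the geometric mean library of its table. Groups were tested two-sided in R 4.3.3 by limma 3.58.1, with a trend in the variance, on log2(scaled count + 1). The fit had no replicate block, took genes that averaged 10 or more scaled counts, and used Benjamini-Hochberg adjustment at 0.05. A pseudocount understates the change of low genes. Fits on recovered reads used edgeR 4.0.16 and DESeq2 1.42.0, with adjusted p-values left as NA where DESeq2 gave NA. Counts were also simulated with the same dispersion for every gene of a comparison and 200 genes changed. On these counts limma recovered 50.8% of genes changed by 1 (log2) and 98.4% of those changed by 2 in the *spt4Δ* design (5267 genes). The shares were 76.6% and 98.5% for Spt4-AA (4676 genes), and 80% and 100% for Spt5-AA (4649 genes). In the libraries the spread differs between genes, and 2538 genes were called in Spt5-AA cells. The recovered shares therefore do not give the power of the tests above. The totals of 798455 to 6814227 reads limit the precision of low genes.

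The members and the other lists were chosen with earlier results of these data known, so no list was tested. Values in every library are given for members called in at least 1 comparison and their paralogues, in the comparisons that list them. From each of the 3 other lists the text names at most 2 called genes per direction and comparison, those that changed most. All 39 members matched RefSeq's R64 annotation, from which lengths, positions and promoter windows came, and each has 1 coding exon. Of the listed genes, 255, 119 and 119 IDs did not match it and were left out only where a length or promoter was needed. Identities between paralogues are of coding sequences. Alternatives were no rescaling, the same total, pseudocounts of 0.1 and 10, no filter, a mean of at least 100, edgeR, DESeq2, a replicate block and each library left out.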

Additional observations from a re-analysis of the deposited data

Results flagged for a closer look

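*CCP1*, the cytochrome c peroxidase gene, lay above WT in both *spt4Δ* libraries and slightly below DMSO in both Spt4-AA libraries. Its log2 change was 0.61 (SE 0.22) in *spt4Δ* cells and −0.074 (SE 0.15) in Spt4-AA cells, the latter smaller than its SE. The groups did not overlap in 40.5% and 56.3% of all genes in these comparisons. Neither change was called, and the difference between them was not tested.

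*CTA1*, the peroxisomal catalase gene, moved in opposite directions in all libraries of Spt5-AA and Spt4-AA cells: its log2 change was 0.83 in Spt5-AA cells and −0.33 in Spt4-AA cells relative to the same DMSO libraries, only the first was called, and the difference was not tested. As deposited, both values were below 0.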

How the results depend on the processing

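Without rescaling, 13 genes were called for *spt4Δ*, 1022 for Spt4-AA and 4351 for Spt5-AA, against 55, 419 and 2538. The median of the members was then 0.98, −0.020 and −0.83, with 4 of 30 members higher and 6 lower in Spt4-AA cells (3.03% and 18.8% of all genes) and 8 higher and 19 lower in Spt5-AA cells (2.38% and 90.7%). On that scale *spt4Δ* replicate 1 lay far above the other libraries of its table. Members above 0 relative to the median gene in Spt5-AA cells and below 0 without rescaling were *CTA1* (−1.02), *SOD1* (−0.083), *CCP1* (−1.81), *DOT5* (−1.002), *TRX3* (−1.71), *MXR1* (−0.55), *MXR2* (−0.48), *GRX5* (−0.83), *GLR1* (−1.57), *HYR1* (−0.61), *ECM4* (−1.02), *GTO1* (−1.02), *OYE2* (−0.041) and *YAP1* (−1.33). This is the shift of the median gene. At the same total, 15 genes were called for *spt4Δ* and 672 for Spt4-AA, with 14 members (13 higher) and medians of 0.40 for Spt4-AA and 1.24 for Spt5-AA. For Spt5-AA, a minimum mean of 100 tested fewer genes and called 1622, with a median of 1.02, and a pseudocount of 10 gave a median of 1.03. DESeq2 called 108 genes for *spt4Δ*, of which 1 was a member (1 higher). With the replicate block, 90 genes and 0 members were called for *spt4Δ*, where same-numbered libraries deviated with a correlation of −0.26. The labels give no shared batch. A block with the numbers crossed, added after the data were examined, called 267 genes and 3 members (2 higher, 1 lower).

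With each library left out, 16 to 1586 genes were called for *spt4Δ*, 89 to 1650 for Spt4-AA and 1889 to 2731 for Spt5-AA. Members called ranged over 0 to 13 (0 to 10 higher, 0 to 6 lower), 0 to 19 (0 to 14 higher, 0 to 6 lower) and 26 to 30 (19 to 23 higher, 7 lower), and their medians over 0.045 to 0.16, 0.19 to 0.42 and 1.00 to 1.11. Of the Spt5-AA calls, 25 of 28 held with each library left out, as did 0 of the 8 Spt4-AA calls. *SOD1* in Spt4-AA cells was at 0.25, and at −0.29 without Spt4-AA replicate 2 and 0.80 without Spt4-AA replicate 1. The cause of these differences was not tested. Genes with few reads, such as *SRX1*, *GPX1* and *ECM4*, are limited by depth.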
